A study of Mus musculus with 3 samples.

Results

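Islet cells that held high levels of both somatostatin and insulin mRNA numbered 258 of 12308 cells kept, 13 of 859 in library 1 and 245 of 11449 in the joint table. They were chosen by measured hormone values: Sst of at least 100 and Ins1 plus Ins2 of at least 3000 UMIs per 10000 UMIs of the cell (CP10K), with Gcg under 200 CP10K. A UMI is the molecular tag that marks 1 captured transcript. The cells came from islets of Langerhans of mice of genotype Ngn3-CreERT:R26-CAG-TdTomato, all sampled at 10 days after tamoxifen, in 3 samples that form 1 group with no Cre-negative or untreated sample. Ngn3 is another name of Neurog3, the gene that gives the Cre driver its name, and the reporter is the red protein TdTomato from the ROSA26 locus. Library 1 is replicate 1. Replicates 2 and 3, each of 2 pooled mice, share the joint table, whose barcode suffixes mark 3 blocks that no label ties to a sample, so each comparison has n = 2 tables and the blocks serve as values only.

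Beta cells make insulin, which lowers blood glucose, and delta cells make somatostatin, which restrains the release of insulin and glucagon from their neighbours. Beta cells are recognised by the transcription factor Mafa, the glucose transporter gene Slc2a2 and the peptide genes Iapp and Ucn3. Delta cells are recognised by the transcription factor Hhex and the retinol carrier gene Rbp4. Mature islet cells mostly make 1 main hormone, and cells holding transcripts of a pair of hormones are described in development and in droplet data, where a single barcode can also capture a pair of cells.

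The hormone genes sit apart in the genome. In the mm10 build with GENCODE vM21 annotation, Sst lies on chromosome 16 (23889573 to 23890958, minus strand), Ins1 on chromosome 19 (52264297 to 52265476, plus strand) and Ins2 on chromosome 7 (142678656 to 142743381, minus strand). UMIs of Ins1 and Ins2, which are close copies, were added together. The comparison classes, called delta and beta cells here, were set by limits on the same scale: delta cells had Sst of at least 500 CP10K with insulin under 3000, and beta cells had insulin of at least 3000 with Sst under 100. Both had Gcg under 200 CP10K. Library 1 held 63 delta and 468 beta cells, and the joint table held 542 and 7164. Across the series, library 1 held 1146 cells with 27474046 UMIs, and 13042 distinct cells with 196833349 UMIs made up the joint table. The filters removed 287 and 1593 of them.

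Cells with both hormones made up 1.51% of library 1 (exact 95% Clopper-Pearson interval 0.808% to 2.57%) and 2.14% of the joint table (1.88% to 2.42%). Within the joint table they were 1.71% of block 1 (89 cells), 2.03% of block 2 (53 cells) and 2.83% of block 3 (103 cells). The intervals of blocks 1 and 3, 1.38% to 2.10% and 2.32% to 3.42%, do not overlap. Counted per somatostatin cell, that is over members and delta cells together, the share was 17.1% in library 1 (9.43% to 27.5%) and 31.1% in the joint table (27.9% to 34.5%). It was lowest in block 1 at 23.4% and highest in block 3 at 46.2%. Cells with both glucagon and insulin made up 1.49% of glucagon cells in library 1 and 11.8% in the joint table. In block 3 this share was highest, at 18.9%. Glucagon cells had Gcg of at least 200 and Sst under 100 CP10K, at any insulin level. The somatostatin share used unlike limits, Sst of at least 100 CP10K for members and 500 for delta cells. It left out 5 and 72 cells with Sst between these limits and insulin under 3000, so the shares are not compared. All intervals cover counting error only, and the blocks have no replicate. Of the members' barcodes, 0 were members in a second library or block and 1 occurred there among other cells.

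The hormone levels, which the rule used, describe the cells and carry no test. Median Sst was 249.6 CP10K in library 1 (lowest 102, highest 530.2) and 240.2 CP10K in the joint table (100.2 to 1032). Delta cells reached 1355 and 1348 CP10K, and beta cells 0.160 and 0.349 CP10K. Members therefore lay between the classes and nearer to delta cells on a log axis.

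Median insulin of the members was 4837 CP10K in library 1 (3005 to 6095) and 5350 CP10K in the joint table (3127 to 7388). Beta cells had 6479 and 6566 CP10K. Delta cells differed between the tables, with 103 CP10K in library 1 and 726 CP10K in the joint table. Non-endocrine cells, which do not make insulin, showed 102 CP10K and 1033 CP10K. As a share of UMIs, insulin in delta cells was thus close to their level in library 1 and below it in the joint table. Non-endocrine cells of the joint table were shallower than delta cells, so this order cannot be read as UMIs per cell. The lowest member lay above both non-endocrine medians, as the limit of 3000 CP10K requires.

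At the edge of the rule, the insulin cell just outside had Sst of 93.7 CP10K in library 1 and 98.5 CP10K in the joint table, against 102 and 100.2 just inside. On the insulin side the values were 2424 and 2925 CP10K outside against 3005 and 3127 inside. A further 3 and 50 cells met both hormone limits but had Gcg of at least 200 CP10K, and 5 and 72 cells with Sst between 100 and 500 CP10K and insulin under 3000 belonged to no class.

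**Figure D1:**
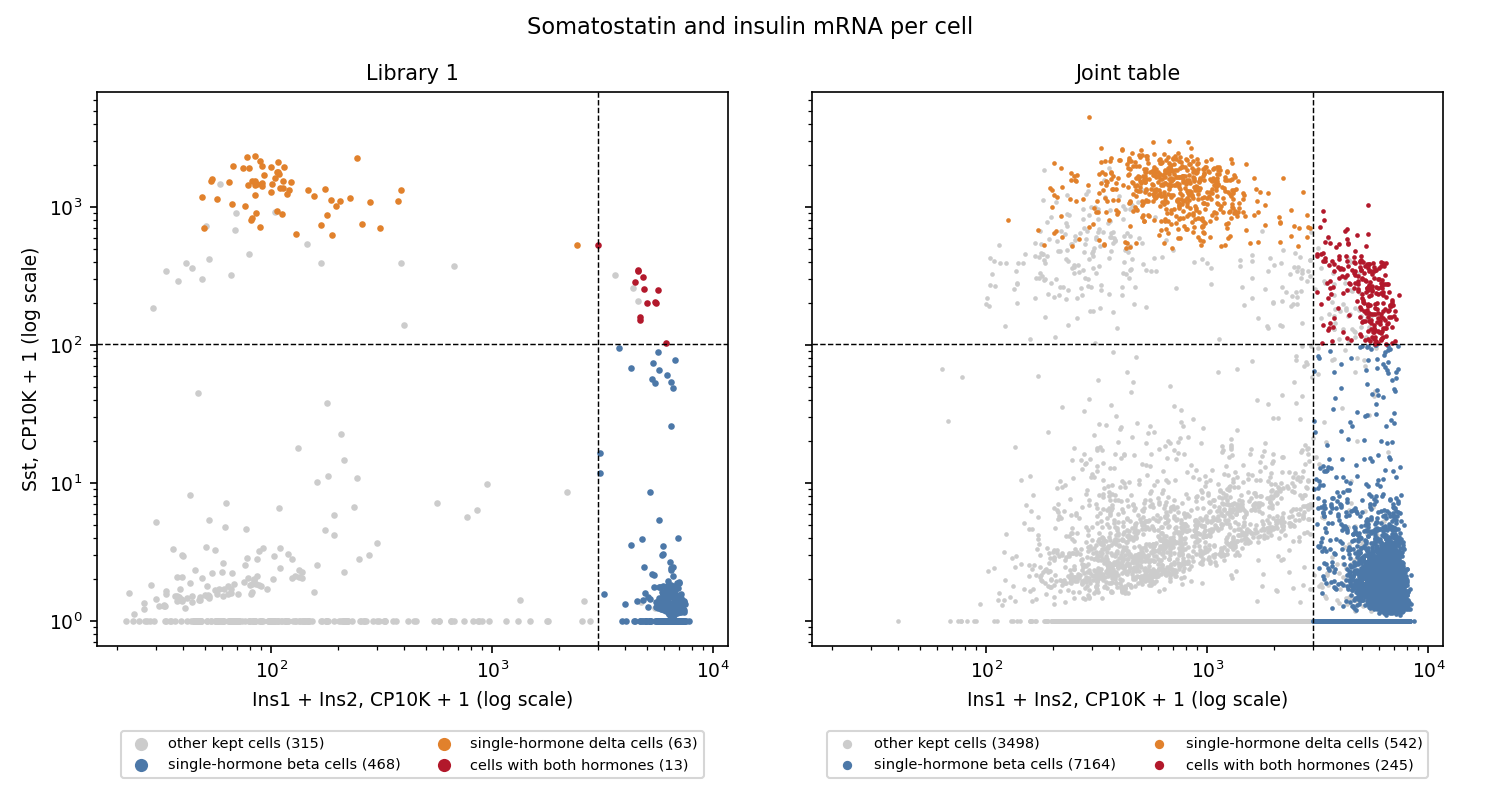
Somatostatin (y axis) against summed insulin mRNA (x axis) in each kept cell, both as CP10K plus 1 on log axes, with the limits of the rule dashed. Each point is 1 cell; the 13 and 245 cells with both hormones fill the upper right corner, below the delta cells in Sst and left of most beta cells in insulin.

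To set these cells against a plain addition of the single-hormone classes, each delta cell was added to 10 beta cells of its own block, spaced evenly in barcode order. Of these computed pair sums, 87.1% of 630 in library 1 and 86.8% of 5420 in the joint table met the members' own rule. Their median Sst was 277 and 294 CP10K and their median insulin 5159 and 5218 CP10K. Both lie close to the members' medians, though the rule bounds the members' values from below and the pair sums are not so bounded.

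Cells with both hormones held more RNA tags than either class. Their median was 47919 UMIs in library 1 (31916 to 88554) and 25019 UMIs in the joint table (1483 to 76078). Delta cells had 10940 and 5749 UMIs, so the members were 4.38 and 4.35 times deeper. Beta cells had 39246 and 20012.5 UMIs, so the members were 1.22 and 1.25 times deeper. The pair sums had 52129 and 26840.5 UMIs, and the members' median was 0.919 and 0.932 of theirs.

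With the 4 hormone genes of the rule left out, the members' median was 2.5 and 2.42 times that of delta cells, 1.69 and 1.57 times that of beta cells, and 0.990 and 0.915 of the pair sums. Block 1 gave 0.918, block 2 gave 1.004 and block 3 gave 0.895 on this last ratio. Genes detected per cell followed the same order, with a median of 5390 and 3722 in members, 1.33 and 1.40 times the beta median and 0.987 and 0.979 of the pair sums. After thinning every cell to 2000 non-hormone UMIs, the members' expected gene number was 1.08 and 1.05 times that of delta cells, 1.03 and 1.02 times that of beta cells and 1.03 and 1.02 times that of pair sums. Thinning left out 14 members, 35 delta cells and 241 beta cells of the joint table as too shallow. Against delta and beta cells, the ratios at equal depth were thus nearer to 1 than those of all genes detected.

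**Figure D2:**
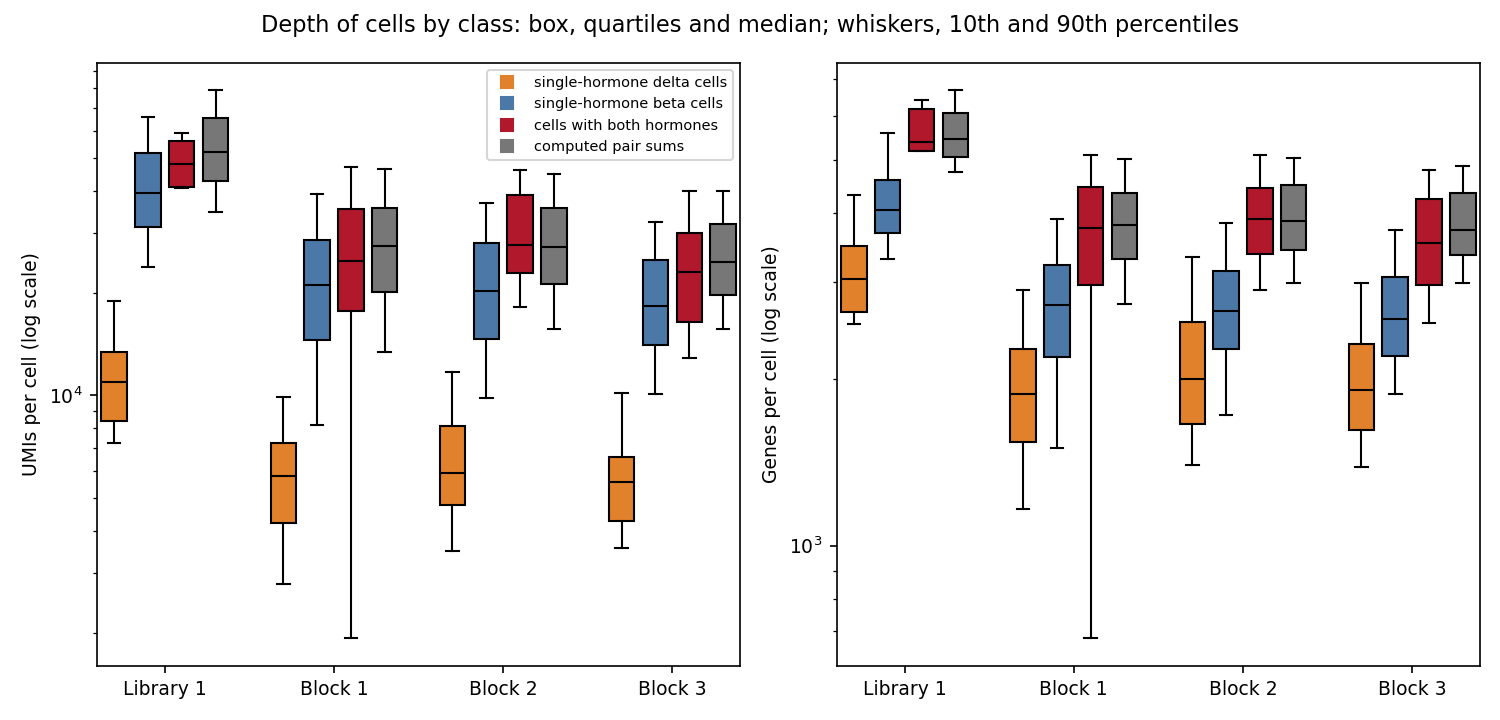
UMIs (left) and genes (right) per cell on log axes by class, for library 1 and the 3 blocks of the joint table; boxes show the quartiles and the median, whiskers the 10th and 90th percentiles. In all 4 the members' median lies above those of delta and beta cells and near that of the computed pair sums, and in block 1 a tail of members reaches down below 2000 UMIs.

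Depth was not high in every member. In library 1, 12 of 13 members lay above the beta median and 0 below the delta median. Of the joint-table members 67.8% lay above the beta median, and 16 of 245 lay below the delta median, 13 of them in block 1. These 16 shallow cells had a median of 1744 UMIs, insulin of 3559 CP10K (3129 to 4892) and 11.9% mitochondrial UMIs, against 4.39% over all joint-table members. Of the 16, 6 passed the marker criterion on both lists that is given next, and 0 had a UMI of both Hhex and Mafa. The part of low depth and of the mitochondrial share in these 16 cells was not tested.

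Genes that the rule did not use also paired the classes within single cells. A list of 16 delta genes (Hhex, Rbp4, Arg1 and others) and a list of 17 beta genes (Mafa, Slc2a2, Ucn3 and others, without Iapp) were summed per cell over 10000 non-hormone UMIs. Members had a median delta sum of 42.2 in library 1 (20.8 to 62.1) and 25.9 in the joint table (0 to 93.1). Delta cells had 79.8 and 60.5, and beta cells 2.67 and 3.13.

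For the beta list the members' median was 46.1 in library 1 (7.99 to 96.5) and 64.1 in the joint table (0 to 125). Beta cells had 94.4 and 103.8, and delta cells 1.48 and 5.17. Each list thus stood at an intermediate level in the members in both tables.

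Measured on means, members stood 44.1% and 39.9% of the way from beta to delta cells on the delta list, and 51.5% and 58.3% of the way from delta to beta cells on the beta list. The 2 positions added up to 95.5% and 98.3% in the tables, and to 95.6%, 99.4% and 100.5% in blocks 1, 2 and 3. In a sum of 1 average delta and 1 average beta cell, the delta cell gives 39.8% and 41.1% of the non-hormone UMIs.

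All 13 members of library 1 and 233 of 245 in the joint table (95.1%, 91.6% to 97.4%) exceeded the 90th percentile of the other class on both lists. The pair sums did so in 100% and 96.2% of cases, delta cells in 11.1% and 10.1%, and beta cells in 10.0% and 9.84%, shares which the choice of percentile fixes near 10% for the single classes. A UMI of Hhex and of Mafa occurred together in 12 of 13 members and in 140 of 245 (57.1%). The pair sums gave 85.4% and 62.1%, delta cells 9.52% and 16.1%, and beta cells 2.35% and 0.824%. Mafa had a UMI in 17.4% of joint-table non-endocrine cells at a median of 2930 UMIs, and Hhex in 9.59%. The part of such UMIs in the shares was not tested.

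**Figure D3:**
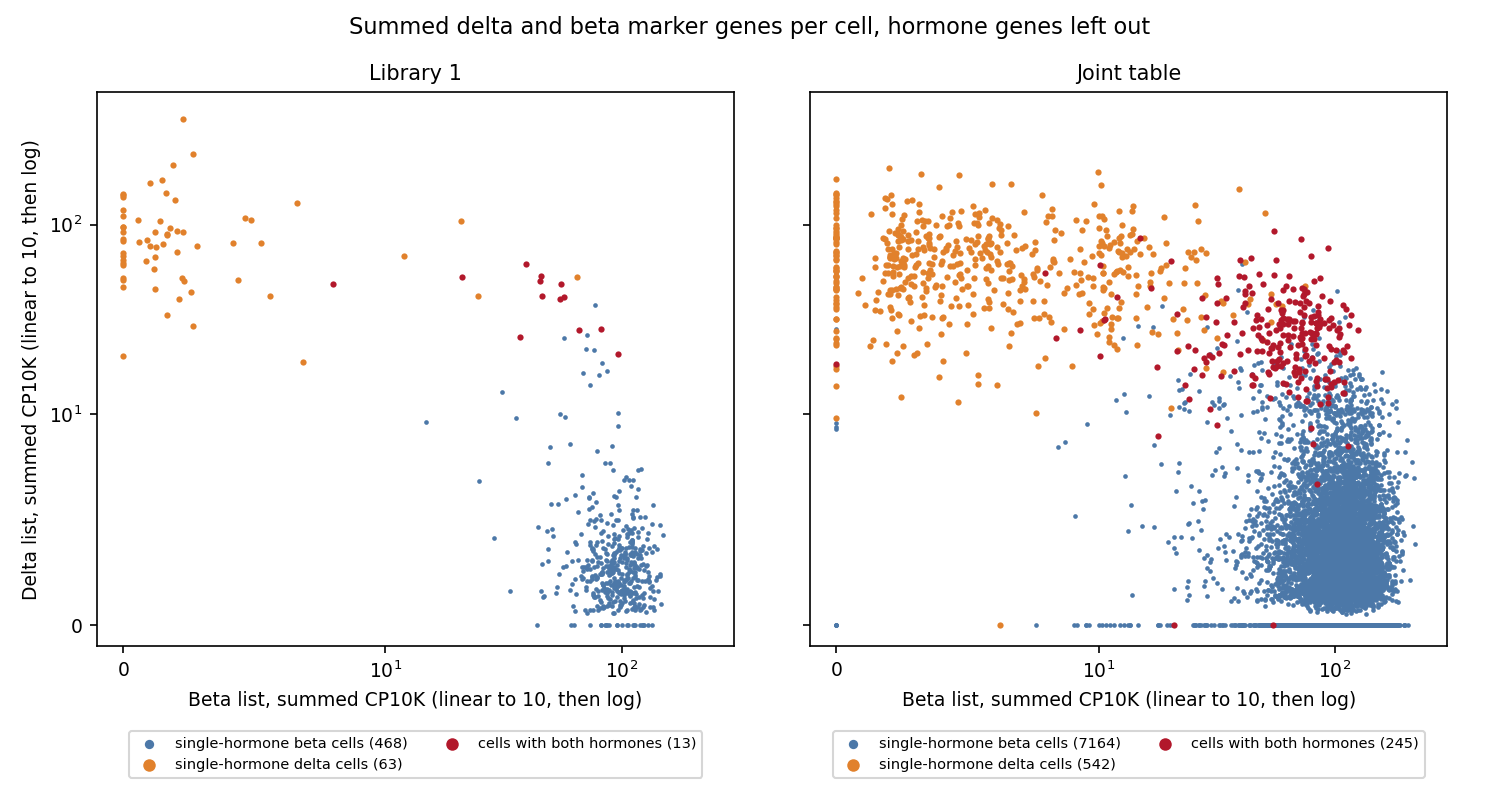
Summed non-hormone CP10K of the delta list (y axis) and the beta list (x axis, without Iapp) in each cell, linear up to 10 and logarithmic above. Cells with both hormones lie between the delta cells on the left and the beta cells at the lower right, with medians of 42.2 and 46.1 in library 1 and 25.9 and 64.1 in the joint table.

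Against delta cells, the members carried the beta program and less of the delta program. The comparison asks which genes besides the hormones separate them. Mean non-hormone CP10K per class and table were compared with limma on log2(mean + 0.05), with the table as a block and Benjamini-Hochberg adjustment over 9420 genes. At an adjusted p under 0.05, 743 genes were higher in members (7.89% of those tested) and 341 lower (3.62%). The direction of the 2 main lists follows from how the classes were cut on Sst and insulin, so these lists describe the cells and are no independent support.

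All 15 tested genes of the beta list rose, with a median log2 difference of 3.40 against 0.07 over all genes. Slc2a2, which encodes the glucose transporter GLUT2, was at 4.67 and 5.08 non-hormone CP10K in members and at 0.239 and 0.404 in delta cells. The log2 difference was 3.76 (SE 0.15, limma adjusted p = 1.17e-07). The endoplasmic reticulum oxidase gene Ero1lb rose by 3.74 (SE 0.16) and the islet glucose-6-phosphatase gene G6pc2 by 3.74 (SE 0.16). The cytochrome c oxidase subunit gene Cox6a2 rose by 3.64 (SE 0.24). Cox6a2 was under 0.1 CP10K in delta cells of both tables. It passed the filter only through members and beta cells, so its rise is no independent support.

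Mafa, a transcription factor of mature beta cells, stood at 5.02 and 8.13 in members against 0.319 and 0.906 in delta cells, a log2 difference of 3.44 (SE 0.18). Iapp, which encodes amylin, rose by 1.16 (SE 0.11), from 268 and 321 in delta cells to 676 and 633 in members. The other genes among the 10 highest were the serine protease gene Prss53 (3.87), Ociad2 (3.83), Ddc (3.75), which makes monoamines, Ucn3 (3.59) and Sytl4 (3.44), which encodes granuphilin. Nupr1, a stress-response gene, had 0 UMIs in library 1 delta cells and 1.59 CP10K in members, at least 33.3-fold higher against a floor of 3 counts over the class. Each of these genes was higher in both tables and all 3 blocks.

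Of the 12 tested delta genes, 7 fell and 0 rose (median -0.98). Rbp4, the retinol carrier, fell by 1.31 (SE 0.10, limma adjusted p = 1.35e-05), from 64.5 and 42.8 in delta cells to 27.5 and 16.3 in members. Ptprz1 fell by 1.28, Rgs2 by 1.15 and Cd24a by 1.07. Hhex stood at 1.72 and 1.23 against 3.33 and 2.67, a log2 difference of -1.01 (SE 0.17). These 5 genes stood above their beta level in the members of both tables.

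Genes of the pancreatic polypeptide program, which many of these delta cells share, fell too. Pyy (peptide YY) fell by 1.44 and Tspan8 by 1.10. Ppy stood at 261 and 247 in members and 466 and 561 in delta cells, a fall of 1.01 (SE 0.22). Ppy of at least 200 CP10K was found in 2 of 13 and 27 of 245 members, against 61.9% and 62.0% of delta cells. The computed pair sums reached it in 9.84% and 18.0% of cases. This limit counts all UMIs of a cell, so insulin UMIs lower the Ppy value of members and pair sums. When members and both classes were limited to Ppy under 200 CP10K the Ppy difference turned to 0.98. That setting cuts the cells on Ppy itself, so its value cannot show how Ppy differs in the members.

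Among the shared endocrine transcription factors and channels, 4 of 12 rose and 1 fell (median 0.30). Nkx2-2 rose by 1.10, Neurod1 by 0.82, Pdx1 by 0.79 and Insm1 by 0.50, each a transcription factor of islet cells, and Isl1 was the one that fell. Of 14 secretory granule genes 6 rose and 2 fell (median 0.29), led by Cadps (2.55), the prohormone convertase gene Pcsk1 (2.09), chromogranin A (Chga, 1.26) and carboxypeptidase E (Cpe, 0.67). Of 10 endoplasmic reticulum stress genes 6 rose and 0 fell (median 0.64), with Sdf2l1 at 1.33 and Ddit3 at 0.82, the latter near 0 in block 2. Of 7 alpha cell genes, Ttr (1.82) and Slc7a2 (1.78) rose and Etv1 fell by 0.84. Among 7 adhesion and gap junction genes, the connexin gene Gjd2 rose by 1.63 and Cadm1 fell by 1.22 and Cdh2 by 0.57.

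The 10 genes with the largest falls were low in both classes, at most 1.08 CP10K. Efnb3, which encodes ephrin B3, was at 0.214 and 0.381 in members against 1.08 and 1.05 in delta cells (log2 -1.72). Rtp4, Fbp1, Gabrg3 and Krtap17-1 fell by 1.72 to 1.78. Tcea3, Exoc6, Acot1, Shank2 and Plk2 had 0 UMIs in the 13 members of library 1. Against 3 counts over the class Tcea3 was at least 5.51-fold lower there, and in the joint table it differed by -1.17. Acot1, Shank2, Gabrg3, Krtap17-1 and Plk2 were under 0.1 CP10K in the members of both tables, so they passed the filter only through the other classes and had to differ.

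Of these 1084 calls 68.5% were higher in members, and this split was 53.5% after centring each column on its median, 57.8% with edgeR and TMM, 53.9% with edgeR and DESeq2 size factors, 57.8% with DESeq2 and 3.49% with the hormone genes kept in the cell total. Keeping them moved the median of all genes to -0.60, and relative to that shift Insm1 (-0.29) and Cpe (-0.15), which turned negative, were still above the median. Lower calls numbered 47 without the table as a block and 8 without the filter on low values.

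Against beta cells, the members carried the delta program and somewhat less of the beta program. The same fit called 289 genes higher (3.07% of 9420) and 89 lower (0.945%). Of 12 delta genes 10 rose and 0 fell, with a median of 3.18 against 0.01 over all genes. Rbp4 had the largest rise of all genes called in the same direction in both tables, from 0.548 and 0.268 to 27.5 and 16.3, a log2 difference of 5.61 (SE 0.10, limma adjusted p = 4.42e-11). Arg1, which encodes arginase, rose by 4.87 (SE 0.15), and Hhex by 4.55 (SE 0.17), from 0.0152 and 0.0137 in beta cells.

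The surface glycoprotein gene Cd24a rose by 4.36, Ly6h by 4.35, the potassium channel partner gene Dpp6 by 4.11, the growth cone gene Gap43 by 3.78 and the transcription factor gene Mef2c by 3.75. Pyy rose by 4.94, from 5.66 and 8.45 to 205 and 222, and Ppy by 4.04 (SE 0.22). In all of these the joint table and its 3 blocks gave the same direction as library 1. Mef2c differed most between the tables, at 4.77 in library 1 and 2.73 in the joint table. Arg1, Hhex, Cd24a, Ly6h, Dpp6, Gap43 and Mef2c were under 0.1 CP10K in beta cells of both tables. They passed the filter only through members and delta cells, so their rises describe the cells and are no independent support.

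Of 15 beta genes 10 fell and 0 rose (median -0.82). Cox6a2 fell by 1.08, Ucn3 by 1.07, Slc2a2 by 0.96 and G6pc2 by 0.93. Mafa stood at 5.02 and 8.13 in members and 10.2 and 13.2 in beta cells, a fall of 0.85 (SE 0.18, limma adjusted p = 0.0230). Iapp stood at 676 and 633 against 906 and 836, a log2 difference of -0.41 (SE 0.11) that missed the threshold (limma adjusted p = 0.0770).

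All 4 tested genes of the pancreatic polypeptide and epsilon cell list rose (median 3.49). Isl1 (0.76) rose and Nkx2-2 fell by 0.52 among 12 shared endocrine genes, and Pcsk1 fell by 0.68 as the 1 call among 14 granule genes. Of 10 stress genes Ddit3 fell by 0.76 and Atf4 by 0.51. The alpha cell list had 1 call of 7, Etv1 (2.75), and in the adhesion list 4 of 7 rose, led by Cadm1 (1.95), while Gjd2 fell by 0.60.

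The lowest of the genes called against beta cells included several that beta cells use at low level. Gad1, which makes the transmitter GABA, was at 0.269 and 0.417 in members and 1.29 and 0.901 in beta cells (log2 -1.54). The metallothionein gene Mt1 was at 9.51 in both tables against 21.9 and 21.7 (log2 -1.19, SE 0.17). Grin1, T2, Fam83g, Slc35d3, Dlgap1 and Vdr fell by 1.11 to 1.51. Plk3 and Emid1 had 0 UMIs in library 1 members, at least 2.73-fold and 2.68-fold lower against 3 counts over the class. Both were under 0.1 CP10K in the members of both tables, so they passed the filter only through the other classes and had to differ.

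Of the 378 calls against beta cells 76.5% were higher in members. The split was 62.5% with edgeR and TMM, 59.1% with edgeR and DESeq2 size factors, 66.4% with a pseudocount of 0.2 and 98.4% with the hormone genes kept in the total, which moved the median of all genes to 0.31. Against the 89 lower calls, limma called 1 gene lower without the table as a block and 0 without the filter on low values, where 1639 genes had an unadjusted p under 0.05 in either direction. Both comparisons share the members, so their calls are not independent of each other.

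Of the 743 genes higher than in delta cells, 551 in library 1 and 662 in the joint table stood below their beta level in the members. Of the 289 genes higher than in beta cells, 258 and 281 stood below their delta level. Over all 9420 genes tested, the median log2 difference was 0.01 from beta cells and 0.07 from delta cells. The share of all genes below each level was not counted. The same member means chose these genes and placed them, so the counts describe the calls and are no result about the members.

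**Figure D4:**
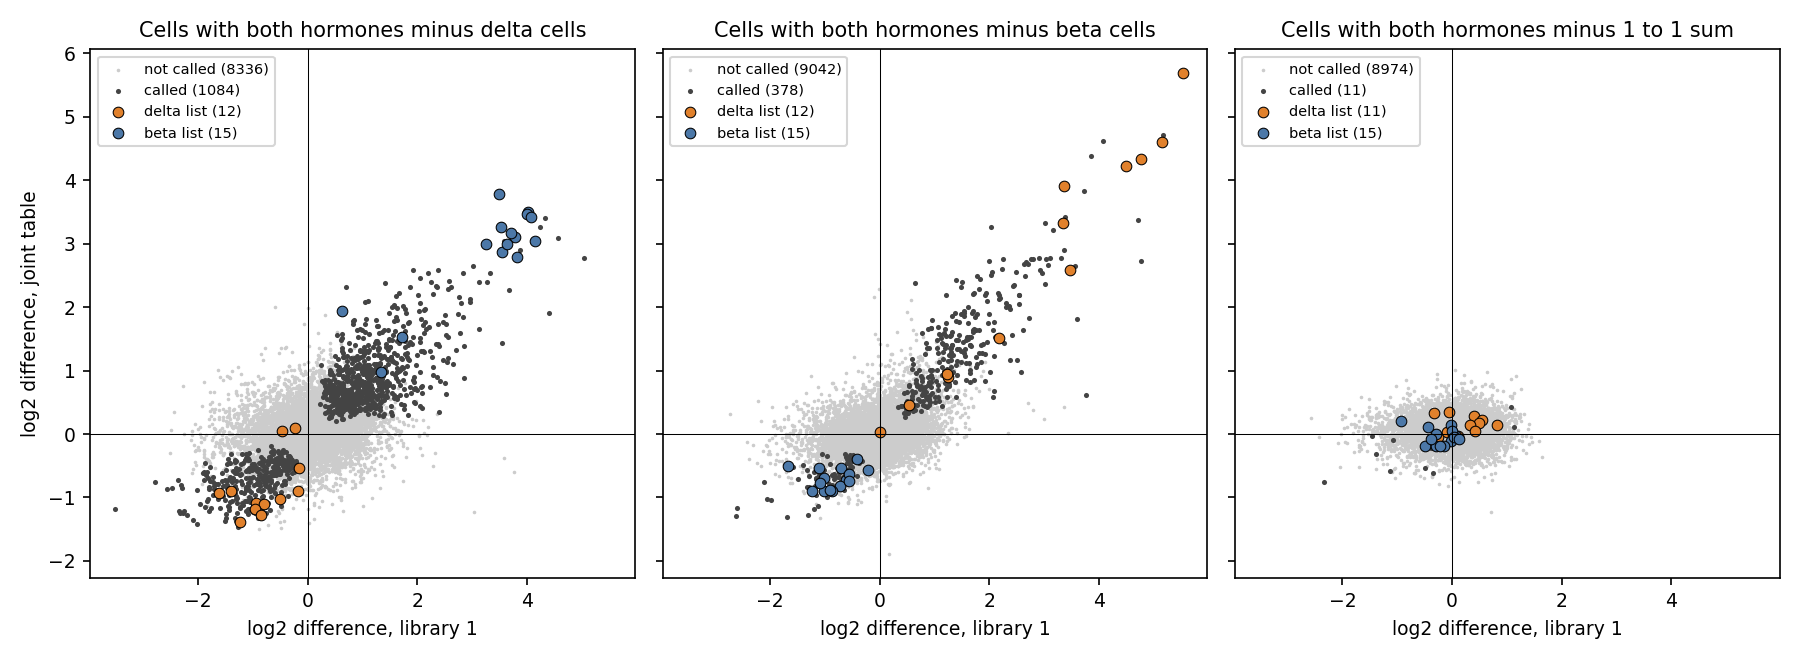
log2 difference in mean non-hormone CP10K per gene in library 1 (x axis) and the joint table (y axis), for members minus delta cells, minus beta cells and minus the 1 to 1 sum; each point is 1 gene, dark where called by limma, with the delta and beta lists in colour. The beta list lies at the upper right in the first panel and the delta list in the second, while both lie around 0 in the third.

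When the mean delta cell and the mean beta cell of a table were added 1 to 1, the members differed less from this sum than from either class. Against this computed sum 2 of 8985 genes were higher in members (0.0223%) and 9 lower (0.1%) by limma, and 612 had an unadjusted p under 0.05. None of the 11 delta and 15 beta genes tested was called, with medians of 0.23 and -0.15 against 0.03 over all genes. The middle 90% of genes lay between -0.41 and 0.41, against -0.71 to 0.90 for delta cells and -0.57 to 0.70 for beta cells. A log2 difference over 1 in both tables in the same direction was found in 0 genes against the sum, 268 against delta cells and 198 against beta cells. The sum is built from the same delta and beta cells, and a gene that misses the threshold is not shown to be equal. For each gene the sum lies between the classes, so a smaller spread than against either class is partly built in. The sum also has its own fit with fewer columns, so the counts of calls are not at equal power.

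Rbp4, Arg1, Hhex, Mafa, Iapp and Ppy were not called against the sum, with Arg1 (0.54) and Hhex (0.40) above it in library 1. Rbp4 was at 27.5 and 16.3 in members and 25.5 and 16.7 in the sum (log2 0.04, SE 0.07). Arg1 was at 3.93 and 2.16 against 2.70 and 1.85 (0.38, SE 0.11, limma adjusted p = 0.157). Hhex was at 1.72 and 1.23 against 1.29 and 1.01 (0.34, SE 0.13).

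Mafa was at 5.02 and 8.13 against 6.17 and 8.11 (-0.15, SE 0.09), and Iapp at 676 and 633 against 671 and 641 (0.00, SE 0.07). Ppy was at 261 and 247 against 237 and 325 (-0.13, SE 0.07).

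Of the 11 genes called, 2 were higher than the sum and 9 lower. Pdyn, which encodes prodynorphin, was higher, at 1.26 and 0.933 against 0.567 and 0.678 (log2 0.76, SE 0.16, limma adjusted p = 0.00341), and was positive in library 1 and all 3 blocks. It turned to -0.74 in joint-table members with Sst of at least 500 CP10K and to -1.14 in those no deeper than the beta median. Mef2c was at 1.60 and 0.799 against 0.702 and 0.739 (0.62, SE 0.15), with 1.13 in library 1, 0.11 in the joint table and -0.21 in block 3.

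The metallothionein genes were lower. Mt1 was at 9.51 in both tables against 13.4 and 13.8 (-0.51, SE 0.08, limma adjusted p = 2.48e-07), and Mt2, its neighbour on chromosome 8, was at 1.94 and 1.84 against 2.49 and 2.85 (-0.48, SE 0.11). Pyy was at 205 and 222 against 266 and 260 (-0.30, SE 0.07). These 3 genes were lower in both tables and all 3 blocks, as were the mitochondrial genes mt-Nd3 (-0.30) and mt-Nd6 (-0.86). The kinase gene Plk3 was lower there too, but it had 0 UMIs in library 1 members and was under 0.1 CP10K in the joint table. Plk3 thus passed the filter only through the sum and had to differ, so its call is no result about the members.

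Gm42418 was at 17.8 and 38.6 against 37.7 and 41.1 (-0.58, SE 0.07, limma adjusted p = 1.89e-12). Its difference was -1.08 in library 1 and -0.09 in the joint table, where block 1 was positive at 0.51. AY036118, which lies wholly inside Gm42418 on the opposite strand of chromosome 17 with 923 shared bases, gave -1.46 and -0.04, and 0.96 in block 1. Reads of this pair cannot be assigned with certainty without the strand setting of the counting. Gad1 was -1.39 in library 1 and -0.32 in the joint table. Without library 1 these 3 differences are thus -0.09, -0.04 and -0.32.

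**Figure D5:**
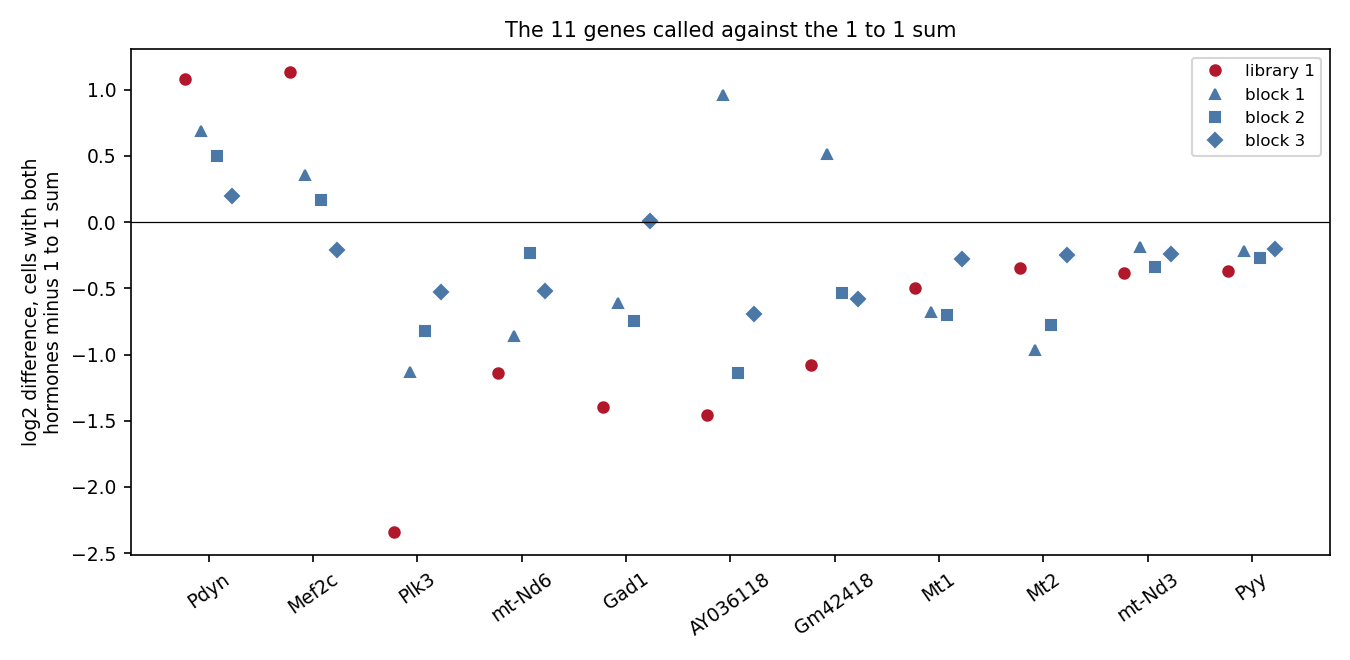
log2 difference between members and the 1 to 1 sum for the 11 genes called (x axis), in library 1 (circles) and the 3 blocks of the joint table (triangle, square, diamond). Mt1, Mt2, Pyy, mt-Nd3, mt-Nd6 and Plk3 are below 0 in all 4, Pdyn is above 0 in all 4, and Gm42418 and AY036118 are above 0 in block 1 only. Plk3 passed the filter only through the sum.

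This fit has 1 residual degree of freedom, so its p-values rest mostly on variance shared over genes. The count was 0 without the table as a block, 0 with the hormone genes kept in the total, 24 after centring (1 higher), 52 with edgeR and TMM (4 higher), 76 with edgeR and DESeq2 size factors (17 higher) and 3 with DESeq2 (0 higher). Of 14 alternatives with a test, Mt1 missed the threshold under 4, Gm42418 under 5, Pdyn under 7, Pyy under 9 and Mef2c under 12.

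Neurog3, the gene named in the title of the study, was lower in members than in delta cells and higher than in beta cells. It drives endocrine commitment in the embryo. A UMI of it was found in 3 of 13 members (23.1%, 5.04% to 53.8%) and 47 of 245 (19.2%, 14.4% to 24.7%), at median depths of 47919 and 25019 UMIs. Delta cells had 34.9% and 21.8% at 10940 and 5749 UMIs, and beta cells 0.641% and 0.921%. Non-endocrine cells had 0 of 121 and 0 of 1428, where 3 counts would be 2.48% and 0.210% of the cells. This floor is on cells with a UMI, not on cells that express the gene.

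Thinned to 2000 non-hormone UMIs, Neurog3 was expected in 1.93% and 3.91% of members, 9.83% and 10.4% of delta cells, 0.111% and 0.270% of beta cells and 4.33% and 4.59% of pair sums. Its level was 0.0963 and 0.293 non-hormone CP10K in members, 0.543 and 0.583 in delta cells and 0.00566 and 0.0135 in beta cells. It fell by 1.45 against delta cells (SE 0.32, limma adjusted p = 0.0136), was higher than in beta cells by 1.91 (SE 0.32, limma adjusted p = 0.00528), and differed from the sum by -0.27 (SE 0.28, limma adjusted p = 0.930). Without the table as a block the limma adjusted p was 0.0951 against delta cells and 0.0739 against beta cells. Without the filter on low values it was 0.171 and 0.254. Neurog3 was under 0.1 CP10K in beta cells of both tables and passed the filter only through the other classes. Its rise against beta cells is therefore no independent support.

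Fev, a transcription factor gene of endocrine precursors, followed the same pattern, falling by 1.18 against delta cells and rising by 1.73 against beta cells. Runx1t1 fell by 0.49 against delta cells. Sox9, a progenitor and duct gene, was higher than in beta cells by 2.30, at 0.177 and 0.264 against 0.00512 and 0.00353, and stood at 0.267 and 0.613 in delta cells. Of 10 progenitor genes tested 3 fell against delta cells, 3 rose against beta cells and 0 were called against the sum. The medians were -0.29, 0.37 and 0.06. The 3 that rose, Neurog3, Fev and Sox9, were under 0.1 CP10K in beta cells of both tables. They passed the filter only through the other classes, so their rises are no independent support.

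The TdTomato row gave 0 of 13 members in library 1, where 3 counts would be 23.1% of the cells, and 112 of 245 (45.7%) in the joint table. Non-endocrine cells of the joint table, at a median of 2930 UMIs, had it in 17.9%, and thinned shares were 11.4% in members, 10.5% in delta cells, 12.9% in beta cells and 12.1% in non-endocrine cells. The thinned shares lay between 10.5% and 12.9% in these classes, and the row was so much lower in library 1 that no level is set across the tables. In the joint table alone its log2 difference was 0.32 against delta cells, -0.08 against beta cells and 0.10 against the sum, with no test.

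Summed markers of endothelial, stromal and immune cells were near 0 in most members. In library 1, 7 of 9 endothelial markers, 8 of 9 stromal markers and 6 of 9 macrophage markers, Lyz2 and C1qb among them, had 0 UMIs in the 13 members. The summed level of each of these lists over the joint table had a median of 0 to 0.777 CP10K in members, with single cells reaching 40.3 for the macrophage list and 50.5 for the stromal list. Acinar genes had a median sum of 0.470 in library 1 members and 5.75 in the joint table, against 1.07 and 15.9 in delta cells. Single markers called against delta cells were Egfl7 (endothelial, lower by 1.28 on the log2 scale), Cd79a (lymphocyte, higher by 1.37) and Fcer1g (myeloid), each under 0.3 CP10K in both classes. Egfl7 was under 0.1 CP10K in members and beta cells of both tables, so it passed the filter only through delta cells and had to differ. In block 2 it was higher in members (0.18). Cd79a was under 0.1 CP10K in delta cells of both tables and passed through the members and beta cells. Fcer1g had 0 UMIs in library 1 delta cells, at least 4.56-fold higher in members against 3 counts over the class, and was lower in members of block 3 (-0.24). Against delta cells, Reg1, Prss2 and Ctrb1 of the acinar list were called lower. Prss2 and Ctrb1 belong to multigene families whose reads can be split. The part of acinar RNA in the differences from delta cells was not tested.

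Members varied in how much of each program they held. Over the 245 joint-table members, insulin per non-hormone UMI and the beta list had a Spearman rho of 0.55 (0.31 to 0.66 in the blocks), and Sst per non-hormone UMI and the delta list 0.41 (0.33 to 0.42). In the 13 members of library 1 the values were 0.70 and 0.09. These are correlations across cells that share a library and a denominator, and they are given as a description. The delta and beta lists had a rho of -0.12 in the joint table and -0.57 in library 1.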

How the data were processed

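Single-cell RNA was counted with the 10x Genomics 3-prime v3 kit, with about 10000 cells loaded per channel. Library 1 was deposited by the authors as raw UMI counts. The joint table was deposited by the authors as the natural log of 1 plus CP10K, checked on its values: columns sum to 10000 after back-transformation and 100% of 35558086 nonzero values are whole multiples of 1 UMI within a relative tolerance of 0.001. The submitters' processing notes name Cell Ranger 3.2.0 (library 1) and 5.0.0 (joint table), cutadapt 2.5, FastQC 0.11.8, Seurat 4.0.0 and mm10, and the strand setting is not given in the sources used here. Of the columns of the joint table, 3008 copy another suffix exactly and were dropped. The series text gives 6 mice, and which mice each block holds is not given in the sources used here.

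Cells were kept with at least 500 genes, 1000 UMIs and at most 20% mitochondrial UMIs. Member and comparison classes were cut on CP10K. Gene levels are means over cells per 10000 UMIs without Sst, Ins1, Ins2 and Gcg, which were not tested. The 1 to 1 sum adds the mean UMIs of a delta and a beta cell of the same table, so it weights cells by depth, while the members' mean does not. Genes needed 0.1 CP10K in at least 2 columns. Differences are on the log2(mean + 0.05) scale, which understates low genes, and were tested with limma 3.58.1 (R 4.3.3), with the table as a block because the classes of a table come from the same mice. edgeR 4.0.16 and DESeq2 1.42.0 on summed UMIs were alternatives. The p-values rest on how class differences vary between the 2 tables once the table effect is removed, with variance shared over genes. A small p-value therefore does not show that the tables agree on that gene. The tables differ in mice and software. The fits were tested on simulated data with known changes, where false calls exceeded the nominal rate, so counts of calls can be too high. Cells of 10 or more UMIs of endothelial, immune, stromal or Schwann markers and low hormones served as non-endocrine cells. Doublets were not removed. The automatic threshold of Scrublet (scanpy 1.11.5) called 9 of 859 cells of library 1 and 36 of 11449 in the joint table. Block 2 held 33 of these 36. How well the caller worked was not tested. Removal of the highest scores at 0.8% per 1000 cells was an alternative.

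Named genes are the 10 highest and 10 lowest called with the same sign in both tables, up to 4 per list, and Neurog3, TdTomato, Ppy, Iapp, Hhex and Mafa. The members and the lists were chosen with earlier results of these data known. A fold against 0 uses a floor of 3 counts over the class.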

Additional observations from a re-analysis of the deposited data

How the results depend on the processing

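Counts of genes called ranged from 103 to 5049 against delta cells, 42 to 1344 against beta cells (12 alternatives each) and 0 to 76 against the sum (14 alternatives); 7, 6 and 3 of these were within 1.5 times the counts of 1084, 378 and 11. The cause of each change given here was not tested. With no filter on low values the counts were 103, 42 and 0 by limma (594 genes at an unadjusted p under 0.05 against the sum), and with the hormone genes kept in the total 5049, 1344 and 0 (527). The table was used as a replicate block since the classes of a table come from the same mice, and with no replicate block the counts were 322, 130 and 0 (107). edgeR gave 793 against beta cells and 52 against the sum with TMM, and 816 and 76 with DESeq2 size factors. DESeq2 gave 673 against delta cells and 3 against the sum, and centring 24 against the sum. With Ppy under 200 CP10K in all classes the counts were 541, 185 and 1. Against the sum, 5 were called without the highest Scrublet scores, 1 with delta cells of at least 1000 CP10K Sst, and 2 with a fitted weight. Leaving out either table leaves no residual degrees of freedom, so it gave values and no counts.

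The share of members in library 1 and the joint table was 0.116% and 0.148% with Sst of at least 500 CP10K, and 0.582% and 1.31% with insulin of at least 5000 CP10K. In the joint table it was 2.58% with no limit on Gcg and 1.79% without the highest Scrublet scores.

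Over the alternatives, 702 of 884 values of the 52 called genes named against delta cells kept their direction and side of the threshold, 446 of 609 for the 36 against beta cells, and 101 of 208 for the 11 against the sum, of which 4 never turned. Members with Sst of at least 500 CP10K, with insulin of at least 5000 CP10K or no deeper than the beta median leave 1, 5 and 1 cells in library 1, so these settings use the joint table, with no test. Against delta cells, the Sst limit turned Hhex to 0.15, Ptprz1 to 0.14, Runx1t1 to 0.50, Prss2 to 0.052 and Ctrb1 to 0.62, and the depth limit turned Reg1 to 0.41, Prss2 to 0.53 and Ctrb1 to 0.87. Ppy turned to 0.98 with Ppy under 200 CP10K, a limit that cuts on Ppy itself. Insm1 turned to -0.29 and Cpe to -0.15 with the hormone genes in the total. For TdTomato the fit over both tables gave -0.25 against delta and -0.22 against beta cells. The first value averages -0.83 in library 1, where members had 0 UMIs, and 0.32 in the joint table, so it sets no level. It turned to 0.0018 with a pseudocount of 0.2, and to 0.18 and 0.17 with edgeR by TMM and size factors. The value against beta cells turned to 0.045 with the hormone genes in the total. Against the sum, the Sst limit turned Pdyn to -0.74, Mef2c to -0.042, AY036118 to 0.66, Gm42418 to 0.058 and Pyy to 0.50. The depth limit turned Pdyn to -1.14, Gad1 to 0.15, AY036118 to 1.14, Gm42418 to 0.85 and mt-Nd3 to 0.014, and the insulin limit turned Mef2c to -0.079. Ppy turned to 0.011 with the hormone genes in the total, 0.31 with stricter delta cells and 0.21 with the fitted weight. It was 2.05 with Ppy under 200 CP10K, where the limit again cuts on Ppy itself. Iapp turned to 0.0086, 0.17 and 0.048 with the hormone genes in the total, equal weights and the fitted weight. Equal weights turned Hhex to -0.041, Mafa to 0.071 and Rbp4 to -0.32. Rbp4 also turned to -0.028 (centring), -0.033 (DESeq2), -0.045 (edgeR, TMM), -0.038 (edgeR, size factors), -0.039 (fitted weight), -0.068 (Ppy limit) and -0.082 (stricter delta cells). Only 13 members in library 1 and a single residual degree of freedom limit what small differences from the sum can show.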

Other observations

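Over all genes tested, limma called 7.89% higher and 3.62% lower against delta cells, and 3.07% higher and 0.945% lower against beta cells. Of 12 immediate early genes, Jun and Ier2 were lower in the members than in delta cells. Jun and Jund were higher than in beta cells, and 0 were called against the sum. Of 7 tested genes for somatostatin, insulin and related receptors, Insrr (1.32), Igf1r (0.62) and Sstr3 (0.52) were higher than in delta cells on the log2 scale, and 0 were called against beta cells. Of 5 tested cell cycle genes, 0 were called against delta cells and Stmn1 was higher than in beta cells (1.77). Its difference from delta cells was positive in library 1 and negative in the joint table. Stmn1 was under 0.1 CP10K in beta cells of both tables and passed the filter only through the other classes.

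Among the cells with the highest Scrublet scores were 47 of 245 joint-table members (19.2%), 4 of 542 delta cells and 150 of 7164 beta cells. The share of members was 34.8% in block 1, 7.55% in block 2 and 11.7% in block 3, and in library 1 it was 0 of 13. How many cells counted as highest was set by the number of cells kept, at 0.8% per 1000. It was 216 of 5204 cells in block 1 and 54 of 2607 in block 2. It was 105 of 3638 in block 3 and 5 of 859 in library 1. The shares of members thus do not rest on an equal cutoff. The automatic threshold called 9 cells of library 1, 2 of the 13 members among them, and 1 of 245 members in the joint table. The score is built from added cell pairs, and it was not used to decide what any cell is.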
